A study of Sus scrofa with 6 samples.

Results

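Cardiac fibroblasts were followed through 10 genes commonly used to recognise them: PDGFRA, TCF21, DDR2, THY1, PDPN, VIM, S100A4, FAP, DPT and GSN. The genes were taken by name, and they leave out the fibrillar collagens and the other abundant structural components of the matrix. All 10 were found among the 13288 genes of the deposited table. The symbol was given there for 9 of them, and PDPN was matched through its identifier, ENSSSCG00000003451. All 10 also reached 1 FPKM in 3 samples or more and so were among the 11029 genes tested. FPKM divides the fragments of a gene by its transcript length and by the sequencing yield of the library, so levels can be set side by side between genes.

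RNA was sequenced from ventricular tissue of male Tibetan minipigs, 3 in the sham group (replicates 1 to 3) and 3 in the DAC group (replicates 4 to 6), with 1 minipig per library. In the DAC group, sutures narrowed the descending aorta through an opened chest to load the left ventricle with pressure. The sham group had the same opening of the chest without a constriction, and the tissue of both groups was taken at week 12. The age of the animals and the ventricle used for sequencing are not given in the sources used here.

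Fibroblasts form the interstitial scaffold of the heart, sense stretch and growth factors, and turn into matrix-producing cells when the ventricle is overloaded. Resting cardiac fibroblasts are usually recognised by PDGFRA, a receptor for platelet-derived growth factors, and by TCF21, a transcription factor of their epicardial lineage. FAP, a cell surface protease, and PDPN, a mucin-like membrane protein, are better known from activated fibroblasts. None of the 10 genes is exclusive to fibroblasts: VIM is also made by endothelial cells and leukocytes, PDPN by lymphatic endothelium and mesothelium, THY1 by T cells and pericytes, S100A4 by leukocytes, and GSN by many cell types.

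The groups were compared with limma's moderated test on log2(FPKM + 1), and genes with an unadjusted P under 0.05 are called differentially expressed genes (DEGs). Of the 11029 genes tested, 8.51% were DEGs, 3.25% upregulated and 5.27% downregulated in the DAC group, and no gene had an adjusted P under 0.05 after Benjamini-Hochberg adjustment (smallest 0.106). With mitochondrially encoded genes left out and the rest rescaled, 502 genes were upregulated and 408 downregulated, against 358 and 581 without rescaling. Summed FPKM was between 281377 and 308771 per sample. Mitochondrially encoded genes held between 24.0% and 25.3% of it in the sham group, 32.8% in DAC replicate 5, and 27.1% and 27.2% in the other DAC samples. Read numbers are unknown, so precision is given by the spread between minipigs alone.

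In the DAC myocardium, VIM and PDPN were upregulated DEGs and none of the 10 markers was a downregulated DEG. That is 2 of 10 against 3.25% of all genes tested in this direction. FAP and DDR2 were also higher in every DAC sample than in every sham sample, but neither was a DEG. The groups of PDGFRA, TCF21, THY1, S100A4, DPT and GSN overlapped. Every DAC value lay above every sham value in 4 markers, against 6.01% of all genes tested, and no marker showed the opposite separation, against 8.91% of all genes tested (14.9% in either direction). All markers but TCF21 (9 of 10) had the higher mean in the DAC samples, as had 46.6% of all genes tested, and with mitochondrially encoded genes left out or with sample weights TCF21 did so too. The median log2 fold change was 0.22 for the markers and -0.016 for all genes tested. Among the fits that left out a sample, the median of the markers was lowest without DAC replicate 6 (0.16) and highest without DAC replicate 4 (0.33). Because whole tissue was sequenced, more fibroblasts, more RNA per fibroblast and RNA from other cells that make these genes cannot be told apart.

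**Figure D1:**
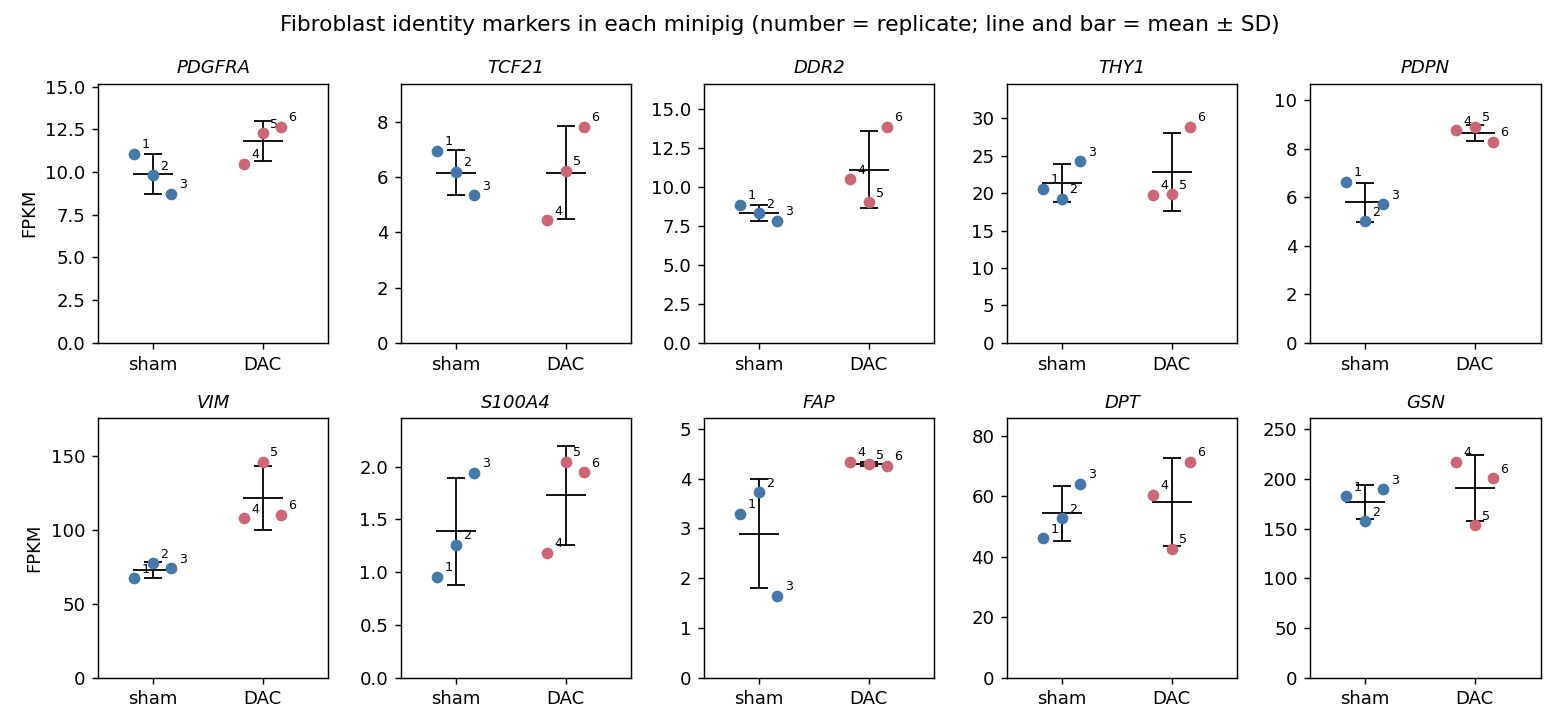
FPKM of the 10 fibroblast identity markers (vertical axes, each from 0) in the 3 sham and 3 DAC minipigs, with a point per minipig labelled by its replicate number and the mean ± SD of the group in black. VIM, PDPN, FAP and DDR2 have all DAC points above all sham points, while the points of the other 6 markers overlap.

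VIM encodes vimentin, the intermediate filament protein of mesenchymal cells, and lies at chr10:43517307-43526172 (ENSSSCG00000011033, build susScr11 in the submitters' processing notes). It was at 67.3, 77.4 and 74.3 FPKM in sham replicates 1, 2 and 3 and at 108, 146 and 110.5 FPKM in DAC replicates 4, 5 and 6. The lowest DAC value therefore exceeded the highest sham value by a wide margin, and replicate 5 stood above the other DAC samples. The mean rose from 73.0 ± 5.21 FPKM (SD, n = 3) with sham surgery to 122 ± 21.5 FPKM (SD, n = 3) with constriction, a ratio of 1.67. The log2 fold change was 0.72 (standard error 0.14, 95% interval 0.38 to 1.06, unadjusted P = 0.00149, adjusted P = 0.379 from limma). VIM ranked 42nd by P among all genes tested, and it was a DEG in all 14 alternatives tried, with a log2 fold change of 0.58 without DAC replicate 5.

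PDPN (chr6:73019057-73049998) was at 6.64, 5.01 and 5.70 FPKM in the sham samples and at 8.76, 8.89 and 8.29 FPKM in the DAC samples. The DAC samples were close together, and the highest sham sample, replicate 1, was below all of them. The mean rose from 5.78 ± 0.817 FPKM (SD, n = 3) to 8.65 ± 0.318 FPKM (SD, n = 3). The log2 fold change of PDPN was 0.51 (standard error 0.12, 95% interval 0.23 to 0.80, unadjusted P = 0.00333, adjusted P = 0.457 from limma). PDPN was a DEG in all 14 alternatives, with a log2 fold change between 0.43 and 0.60 when 1 sample was left out.

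FAP (ENSSSCG00000015896, chr15:68830730-68902379) encodes fibroblast activation protein, which cleaves peptides after proline. It was at 3.30, 3.73 and 1.65 FPKM in the sham samples and at 4.34, 4.30 and 4.26 FPKM in the DAC samples. The DAC values were almost equal, and the spread of the sham group came from the low value of replicate 3. The log2 fold change was 0.49 (standard error 0.21, 95% interval -0.017 to 0.996, unadjusted P = 0.0561, adjusted P = 0.592 from limma). Leaving out sham replicate 3 brought it to 0.23. Leaving out sham replicate 2 brought it to 0.65, and FAP was then a DEG (unadjusted P = 0.022 from limma).

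DDR2 (ENSSSCG00000006338, chr4:87756168-87911375) encodes a receptor tyrosine kinase that is switched on by fibrillar collagen. Its FPKM was 8.85, 8.30 and 7.82 in the sham samples and 10.5, 9.004 and 13.8 in the DAC samples. The groups did not overlap, but DAC replicate 5 was barely above sham replicate 1 and DAC replicate 6 was far above both. The log2 fold change of DDR2 was 0.36 (standard error 0.16, 95% interval -0.013 to 0.73, unadjusted P = 0.0563, adjusted P = 0.592 from limma). DDR2 was a DEG without DAC replicate 5 (log2 fold change 0.49, unadjusted P = 0.0159 from limma), and its log2 fold change was 0.20 without DAC replicate 6. After median scaling of the samples and with mitochondrially encoded genes left out, both DDR2 and FAP passed the threshold, so that 4 of the 10 markers were then upregulated DEGs. DDR2 was a DEG with quantile normalization and with sample weights as well.

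PDGFRA (ENSSSCG00000008841, chr8:40967493-41021442) was at 11.1, 9.81 and 8.74 FPKM in the sham samples and at 10.5, 12.3 and 12.6 FPKM in the DAC samples. DAC replicates 5 and 6 were above all sham samples, and replicate 4 was below sham replicate 1. The means were 9.87 ± 1.18 FPKM (SD, n = 3) and 11.8 ± 1.16 FPKM (SD, n = 3), and the log2 fold change was 0.24 (standard error 0.13, 95% interval -0.060 to 0.53, adjusted P = 0.640 from limma). PDGFRA was not a DEG in any of the 14 alternatives.

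TCF21 (ENSSSCG00000033258, chr1:29973380-29978255) had nearly equal means, 6.16 ± 0.798 FPKM (SD, n = 3) in sham samples and 6.16 ± 1.69 FPKM (SD, n = 3) in DAC samples. The single values were 6.95, 6.20 and 5.35 FPKM in the sham samples and 4.44, 6.23 and 7.82 FPKM in the DAC samples, so that both the lowest and the highest of the 6 samples were DAC samples. Its log2 fold change was -0.022 (standard error 0.19, 95% interval -0.47 to 0.43, adjusted P = 0.981 from limma), and the sign turned with mitochondrially encoded genes left out (0.015).

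THY1 (ENSSSCG00000032330, chr9:46607494-46612269), a small glycoprotein anchored in the cell membrane, was at 20.6, 19.2 and 24.2 FPKM in the sham samples. In the DAC samples it was at 19.8, 19.9 and 28.9 FPKM. DAC replicate 6 alone was above the sham range, and the log2 fold change was 0.078 (standard error 0.17, 95% interval -0.33 to 0.48, adjusted P = 0.915 from limma).

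DPT (ENSSSCG00000035937, chr4:82287730-82319367) encodes dermatopontin, a secreted protein that binds decorin and collagen fibrils and is thus the marker closest to the matrix itself. It was at 46.1, 52.8 and 64.2 FPKM in the sham samples and at 60.5, 42.7 and 71.5 FPKM in the DAC samples. DAC replicate 5 was the lowest and DAC replicate 6 the highest of all 6 samples. The log2 fold change of DPT was 0.080 (standard error 0.21, 95% interval -0.42 to 0.57, adjusted P = 0.931 from limma).

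GSN (ENSSSCG00000037508, chr1:261295713-261385287) encodes gelsolin, which cuts and caps actin filaments. It was at 183, 158 and 189.9 FPKM in the sham samples and at 218, 154 and 201 FPKM in the DAC samples, again with DAC replicate 5 lowest. On the log2 scale the fold change was 0.099 (standard error 0.16, 95% interval -0.27 to 0.47, adjusted P = 0.875 from limma). The annotated span of GSN shares 7422 of its 89575 bases with STOM on the opposite strand, and how reads in the shared stretch were assigned is not given in the sources used here. STOM was between 12.6 and 15.7 FPKM in the sham group and between 11.8 and 31.2 FPKM in the DAC group.

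S100A4 (ENSSSCG00000006578, chr4:96088201-96091156), a small calcium-binding protein also called fibroblast-specific protein, was the scarcest of the markers. It was at 0.956, 1.26 and 1.94 FPKM in the sham samples and at 1.19, 2.05 and 1.95 FPKM in the DAC samples. DAC replicates 5 and 6 lay just above the highest sham value and DAC replicate 4 within the sham range, and the log2 fold change was 0.20 (standard error 0.20, 95% interval -0.27 to 0.67, adjusted P = 0.790 from limma). At this level the pseudocount of 1 matters: with a pseudocount of 0.1 the log2 fold change of S100A4 was 0.32. It was 0.066 when sham replicate 1 was left out, 0.11 for DAC replicate 5 and 0.36 for sham replicate 3.

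**Figure D2:**
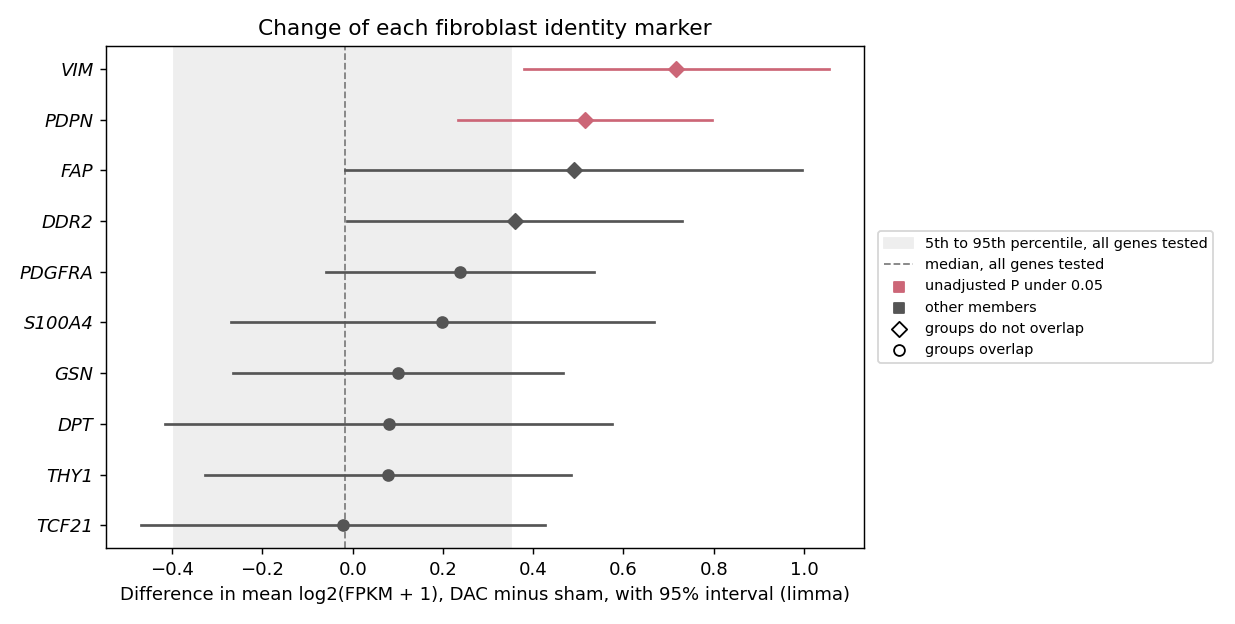
Difference in mean log2(FPKM + 1) between the DAC and sham groups (horizontal axis) for each marker, with the 95% interval from limma, red for an unadjusted P under 0.05 and a diamond where the groups do not overlap. The grey band spans the 5th to 95th percentile of all genes tested, from -0.40 to 0.35, and the symbols of VIM, PDPN, FAP and DDR2 lie to the right of it.

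The levels of the markers spanned from 1.39 FPKM for S100A4 to 177 FPKM for GSN in the sham group. The order in the sham group was GSN, VIM, DPT, THY1, PDGFRA, DDR2, TCF21, PDPN, FAP and S100A4. The values of the neighbours PDGFRA and DDR2, TCF21 and PDPN, and FAP and S100A4 overlapped in that group, so the order within these pairs is not resolved. In the DAC group the order was the same except that PDPN came before TCF21, with all PDPN values (lowest 8.29 FPKM) above all TCF21 values (highest 7.82 FPKM). PDGFRA and DDR2 again overlapped, while FAP (lowest 4.26 FPKM) was above S100A4 (highest 2.05 FPKM) in all DAC samples.

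The markers differed in which DAC minipig was highest. Relative to the sham mean of each marker on the log2(FPKM + 1) scale, all 10 markers were higher in DAC replicate 6, and 7 each in replicates 4 and 5. The median deviation of the 10 markers was 0.41 in replicate 6, 0.23 in replicate 4 and 0.20 in replicate 5. In the sham samples the same median lay between -0.016 and 0.066. Replicate 6 had the highest value of all samples in 5 markers (PDGFRA, TCF21, DDR2, THY1 and DPT). Replicate 5 had the highest value in 3 markers (VIM, PDPN and S100A4) and the lowest in DPT and GSN, and it is also the sample with the highest share of mitochondrially encoded genes. The part of that share in these values was not tested.

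**Figure D3:**
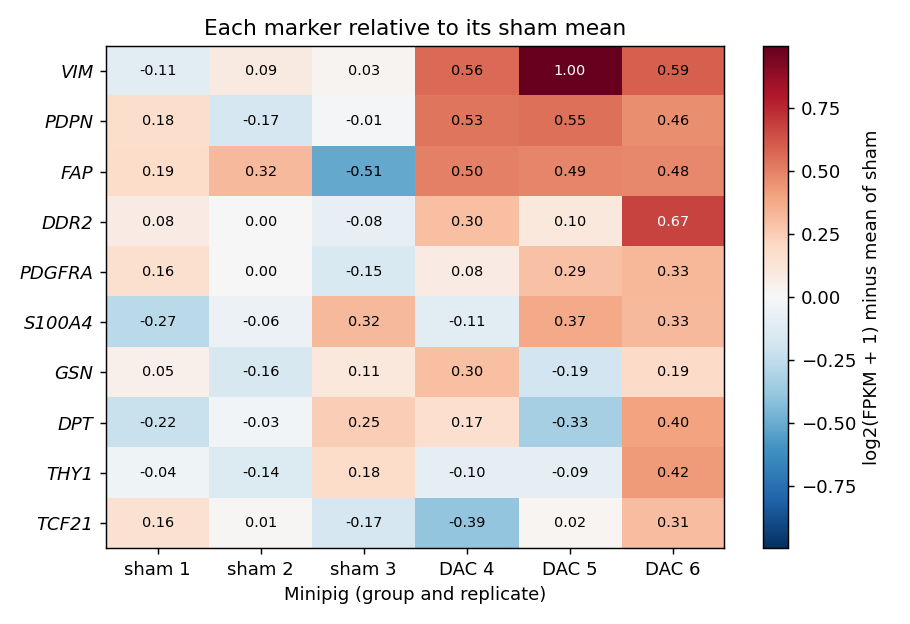
Log2(FPKM + 1) of each marker (rows, ordered by the group difference) in each minipig (columns) minus the mean of the sham group, printed in each cell and coloured red above and blue below 0. VIM, PDPN and FAP are raised by similar amounts in the 3 DAC columns except for VIM in DAC replicate 5, whereas the lower rows are red in every cell only in DAC replicate 6.

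To take the scaling of the libraries out of the comparison, the FPKM of the other 9 markers was divided by that of PDGFRA in the same minipig, a step chosen after the values had been seen. The ratio of VIM to PDGFRA was 6.07, 7.90 and 8.51 in the sham samples and 10.3, 11.9 and 8.74 in the DAC samples. The ratio of PDPN to PDGFRA was 0.599, 0.511 and 0.653 in the sham samples and 0.836, 0.724 and 0.656 in the DAC samples. These were the only 2 of the 9 ratios without overlap between the groups, and in both the gap was narrow. VIM and PDPN had already been called DEGs from the same values, so their ratios are no further support. The share of all genes with such a separation from PDGFRA was not computed. The mean log2 ratio was higher in the DAC group by 0.47 for VIM and by 0.33 for PDPN (exact two-sided permutation P = 0.10 for each, the smallest that 3 against 3 allow, and 0.45 after Benjamini-Hochberg adjustment over the 9 ratios). The ratio of FAP to PDGFRA was 0.298, 0.380 and 0.189 in the sham samples and 0.414, 0.350 and 0.337 in the DAC samples, with overlap. TCF21 per PDGFRA was steady in the sham samples, at 0.627, 0.632 and 0.613. It was 0.423, 0.507 and 0.618 in the DAC samples, a mean log2 difference of -0.29 (exact two-sided permutation P = 0.20).

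**Figure D4:**
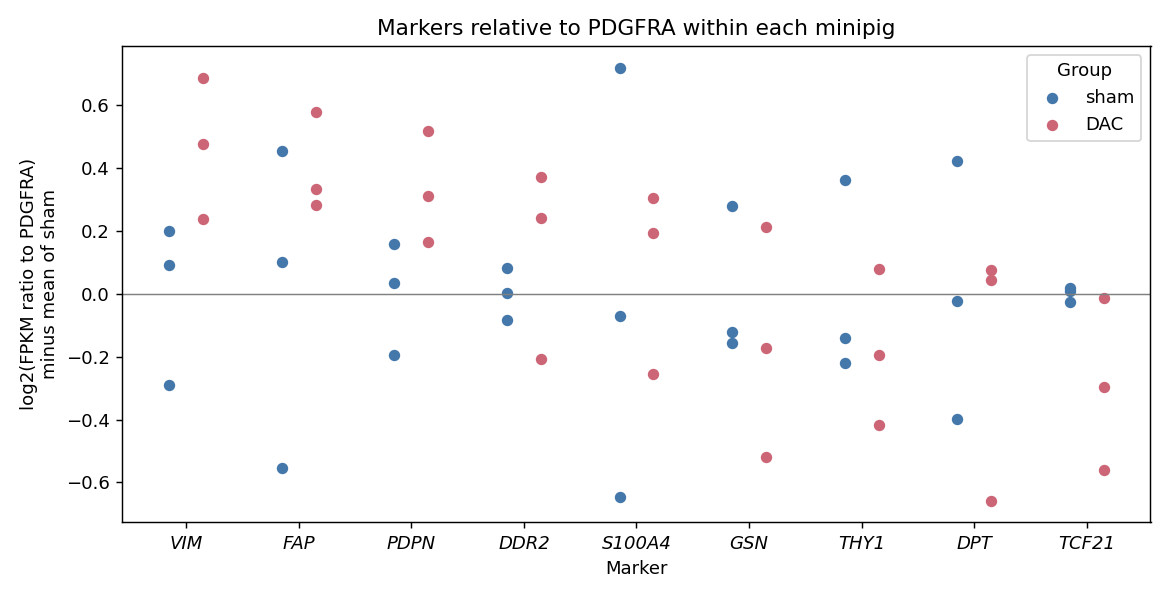
Log2 of the FPKM ratio of each marker to PDGFRA in the same minipig, minus the sham mean of that ratio (vertical axis), for 3 sham (blue) and 3 DAC (red) minipigs. Only for VIM and PDPN do all DAC points lie above all sham points, and the gap between the groups is small for both.

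The genes whose course over the 6 samples was most like that of a marker were sought by the root mean square difference of the centred log2(FPKM + 1) values. For PDPN, the closest of 6316 genes was COL1A2, a chain of type I collagen, at a difference of 0.060. COL1A2 was at 81.3, 68.3 and 70.1 FPKM in the sham samples and at 113, 109 and 109 FPKM in the DAC samples, and CENPI and MITD1 followed. For PDGFRA the closest were H2AJ (difference 0.041), EVL and PHKG1. For TCF21 they were DCTPP1 (difference 0.055), ZNF32 and PGAP2. With 6 samples and this many candidates such a likeness is a description only.

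Related genes of fibroblasts are given by counts of DEGs, to be read against the 3.25% of all genes upregulated and the 5.27% downregulated. Of 22 tested core matrix genes, 11 were upregulated DEGs and none was downregulated, with a median log2 fold change of 0.34. The number upregulated was between 9 and 14 when 1 sample was left out. This list includes COL1A1, COL1A2, COL3A1, COL5A2, FN1, MMP2 and TIMP1, which the authors named as fibrosis genes from the same RNA data. The count is therefore not independent of those data. COL1A1 (0.81 on the log2 scale), OGN (0.79), POSTN (0.71) and COL1A2 (0.59) had the smallest P. Of 20 other tested fibroblast genes, 5 were upregulated DEGs, among them CD34 (0.55), a surface sialomucin of stromal progenitors and endothelium, and TBX18 (0.52), a transcription factor of the epicardial lineage. IL33 (0.54) was also called, but it passed the minimum of FPKM only through its DAC samples. CCL2, a chemokine, and PRRX1, a mesenchymal transcription factor, were the remaining 2. Without DAC replicate 4 or DAC replicate 6, 2 genes of this list (CD34 and TBX18) were upregulated DEGs, and without sham replicate 2 there were 3. IL33 was not tested in the fits that left out a DAC sample, so its absence from those counts is not a lost call. WT1, a transcription factor of the epicardium, was the only downregulated DEG of that list. It was at 4.76, 10.3 and 11.4 FPKM in the sham samples and at 2.36, 2.49 and 4.30 FPKM in the DAC samples, which gave a log2 fold change of -1.23 (standard error 0.32, 95% interval -1.98 to -0.48, adjusted P = 0.482 from limma).

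Of 78 tested partners and relatives of the markers in 9 lists, 9 were DEGs, which is 11.5% against 8.51% of all genes tested. Around PDGFRA, 12 ligands, receptors and adaptors were tested and the adaptor GRB2 was the only DEG, downregulated (log2 fold change -0.44), joined by an upregulated PDGFB without DAC replicate 5. Around TCF21, 1 of 11 bHLH factors was a DEG, TCF12 (0.32), a dimer partner of this class, a call lost without sham replicate 3 or DAC replicate 6. TCF4 was also upregulated without sham replicate 2 and ID3 without DAC replicate 5. None of 7 collagen receptors related to DDR2 was a DEG, and LAIR1 (0.25) had the smallest P and was a DEG without DAC replicate 4, as was ITGA11 without DAC replicate 5. Of 9 partners of PDPN, CD44 (0.37), a hyaluronan receptor, was an upregulated DEG. The number was 3 without sham replicate 2 (with MSN and RDX) and 2 without DAC replicate 4 (with MSN). Of 7 intermediate filament genes and partners of VIM, NES was upregulated (1.11) and PLEC downregulated (-0.44), and DES was also upregulated without DAC replicate 6. NES encodes nestin, a filament protein that assembles with vimentin. It was at 22.5, 30.9 and 32.7 FPKM in the sham samples and at 76.6, 62.9 and 50.8 FPKM in the DAC samples, without overlap.

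In the S100 family, S100A11 (0.83) and S100A6 (0.70) were upregulated DEGs among 5 tested relatives of S100A4. S100A11 was at 4.50, 4.15 and 3.36 FPKM in the sham samples and at 6.18, 10.7 and 7.17 FPKM in the DAC samples, above S100A4 in every sample. S100A1, the most abundant of the 5, went the other way. It was at 599, 593 and 664 FPKM in the sham samples and at 418, 188 and 535 FPKM in the DAC samples, without overlap. Its log2 fold change was -0.83 (unadjusted P = 0.0511 from limma), so it was not a DEG. Without DAC replicate 5 or DAC replicate 6, S100A1 was a downregulated DEG. Among 6 prolyl peptidases related to FAP, DPP9 was downregulated (-0.30), a call that was lost without sham replicate 1, sham replicate 3, DAC replicate 4 or DAC replicate 6, while PREPL was upregulated without DAC replicate 5. None of 14 genes of the gelsolin family and actin turnover was a DEG, and CAPZA1 (0.24), with the smallest P, was a DEG without DAC replicate 4 and in 4 other alternatives, and CAPZA2 without DAC replicate 5. Of 7 partners of THY1 and DPT, FN1 (0.98), the gene of fibronectin and also 1 of the core matrix genes, was upregulated, with ITGAV and ITGB3 as well without DAC replicate 4.

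**Figure D5:**
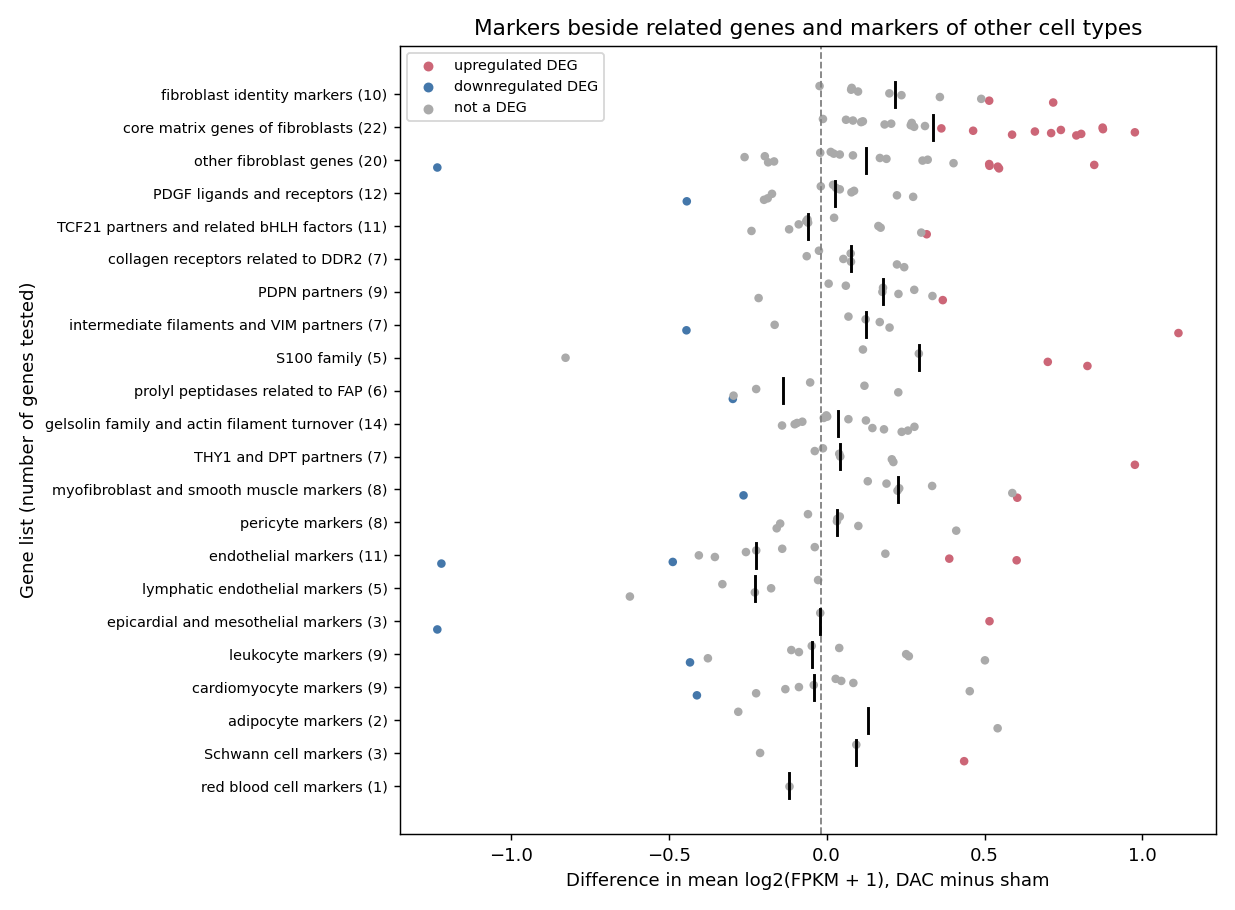
Difference in mean log2(FPKM + 1), DAC minus sham (horizontal axis), of each tested gene in the marker list and in 21 lists of related genes and cell type markers, with the number of genes tested in brackets. Red points are upregulated DEGs, blue points downregulated DEGs, grey points other genes, and black bars medians; the dashed line is the median of all genes tested, -0.016. The core matrix genes have the most red points, 11 of 22, and include genes that the authors had named from the same data.

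Markers of the other cells that share these genes were summed per sample as values to set beside VIM and PDPN. Endothelial markers summed to between 184 and 261 FPKM in the sham group and between 162 and 240.2 FPKM in the DAC group. Of 11 endothelial markers, KDR (0.60) and EMCN (0.39) were upregulated DEGs and CLDN5 (-1.22) and VWF (-0.49) downregulated DEGs, with a median log2 fold change of -0.22. The calls of KDR and EMCN were both lost without sham replicate 1, sham replicate 3 or DAC replicate 6, and that of KDR also without DAC replicate 4. Without sham replicate 1, 4 endothelial markers were downregulated DEGs (ESAM and PECAM1 in addition), and without DAC replicate 5 TEK was upregulated too. The endothelial median lay between -0.42 without DAC replicate 6 and -0.065 without sham replicate 3. Lymphatic endothelial markers summed to between 84.2 and 120.4 FPKM in the sham group and between 84.5 and 106 FPKM in the DAC group, and all 5 tested had lower means in the DAC group, none of them a DEG. LYVE1 had the smallest P of these (log2 fold change -0.62) and was a downregulated DEG without sham replicate 3 or DAC replicate 6. PROX1 made up most of the sum (62.9 ± 4.51 FPKM in sham samples and 61.7 ± 2.92 FPKM in DAC samples, SD, n = 3). Of the 5 tested, CCL21 varied most between minipigs (SD 14.1 FPKM in sham samples and 11.1 FPKM in DAC samples). The cells that made the PROX1 RNA were not tested, so the sum cannot be read as lymphatic endothelium alone.

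Leukocyte markers summed to between 60.8 and 71.2 FPKM in the sham group and between 52.0 and 77.5 FPKM in the DAC group. Of 9 tested, CD163, a scavenger receptor of macrophages, was the only DEG and was downregulated (-0.43). Without DAC replicate 4, CD68 and PTPRC were upregulated DEGs, and a second leukocyte marker was downregulated without DAC replicate 5 (NKG7) or DAC replicate 6 (CD14). None of the T cell and B cell markers of the list was tested. CD3E and CD4 did not pass the minimum of FPKM, but their values are part of the sums. Pericyte markers summed to between 149.5 and 160.3 FPKM in the sham group and between 136 and 183 FPKM in the DAC group. None of 8 was a DEG, and MCAM (0.41), with the smallest P, was a DEG without DAC replicate 5. Among 8 myofibroblast and smooth muscle markers, CNN1 (0.60) was upregulated and SMTN (-0.26) downregulated, with a median log2 fold change of 0.23. The call of CNN1 was lost without sham replicate 1, sham replicate 2 or DAC replicate 5, and that of SMTN without any sample but DAC replicate 4. LMOD1 was upregulated without sham replicate 3, DAC replicate 5 or DAC replicate 6, and CALD1 without DAC replicate 5. Of 10 epicardial and mesothelial markers 7 were not analysed here, among them MSLN. Of the 3 tested, TBX18 and WT1 moved as described above, and the sum was between 13.2 and 18.2 FPKM in the sham group and between 10.9 and 11.5 FPKM in the DAC group. The part of all these cells in the levels of the 10 markers was not tested.

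Cardiomyocyte markers, which check the label of the tissue, were abundant in every library and summed to between 14690 and 15380 FPKM in the sham group and between 13850 and 16880 FPKM in the DAC group. RYR2 (-0.41) was the only DEG of 9 and was not one without sham replicate 1, sham replicate 3, DAC replicate 5 or DAC replicate 6, where MYL3 was downregulated in the last case. In 3 Schwann cell markers, CDH19 (0.44) was upregulated, except without sham replicate 1 or DAC replicate 4. CDH19 was at 0.49, 0.98 and 1.12 FPKM in the sham samples, so it passed the minimum of FPKM through its DAC samples. Neither of 2 adipocyte markers was a DEG (FABP4, 0.54, which was 0.20 with sham replicate 1 left out, 0.21 with DAC replicate 6 left out and 0.81 with sham replicate 3 left out), and of red blood cell markers HBB alone was tested (-0.12, with either sign among the alternatives) and was not a DEG. With a separate variance for every gene, CNN1, KDR, EMCN, RYR2 and CDH19 were not DEGs. SMTN was not a DEG after median scaling, quantile normalization or leaving out mitochondrially encoded genes, nor was RYR2 in the last 2 of these.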

How the data were processed

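RNA of 6 ventricular samples was read as paired ends from NEBNext Ultra libraries. The authors deposited 1 table of FPKM with a column per minipig. HISAT2 and the build susScr11 are named in the submitters' processing notes, and the program behind the FPKM is not given in the sources used here. No gene of the table stays below 0.5 FPKM throughout. Steps of whole reads were looked for, but at most 3 of at least 3848 low genes shared a log2 ratio between 2 samples, so the depth is unknown.

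Genes with at least 1 FPKM in 3 samples were compared as log2(FPKM + 1) with limma 3.58.1 in R 4.3.3 (moderated test, trend of variance over mean, no covariate). P was adjusted over 11029 genes. Symbols missing from the table came from a table of identifiers (520 genes). The fit was tested on simulated data. Figures used matplotlib 3.10.9 in Python 3.11.15.

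The members and the 21 other lists were chosen with earlier results of these data known. The text names all 10 markers and, of each other list, up to 4 DEGs with the smallest P, or else the gene with the smallest P. It also names some, but not all, of the genes that became DEGs when 1 sample was left out, and a few further genes of the lists. These additional genes were named after their values were seen. The likeness of PDGFRA, TCF21 and PDPN was sought among genes whose SD was at least that of the marker divided by 2. The alternatives were 2 other filters (none, 5 FPKM), a pseudocount of 0.1, median scaling, quantile normalization, leaving out mitochondrially encoded genes, a variance for each gene alone, sample weights and each sample left out.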

Additional observations from a re-analysis of the deposited data

How the results depend on the processing

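VIM and PDPN stayed upregulated DEGs in all 14 alternatives (unadjusted P at most 0.00915 and 0.0128 in limma). With median scaling and with mitochondrially encoded genes left out, 4 markers were DEGs in place of 2. There were 3 with quantile normalization, with sample weights and without DAC replicate 5 (DDR2 in addition). Without sham replicate 2 there were also 3 (FAP in addition). The number of DEGs among all genes was 939, 579 with a minimum of 5 FPKM, and between 595 (without sham replicate 1) and 1019 (without sham replicate 2) with 1 sample left out, with 625 without sham replicate 3. The sign of TCF21 turned with mitochondrially encoded genes left out (0.015) and with sample weights (0.027), and its log2 fold change was between -0.19 and 0.16 with 1 sample left out. The same range was from -0.095 to 0.17 for THY1, from -0.082 to 0.28 for DPT and from -0.0023 to 0.25 for GSN. That of HBB was from -0.73 to 0.52, and 0.16 with sample weights. The cause of these changes was not tested. S100A4 and FAP were not tested with a minimum of 5 FPKM. No paired analysis was possible because the groups are separate minipigs that were assigned at random. The smallest exact permutation P of 0.10 and the unknown depth limit what 3 minipigs per group can show.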
